A study of Homo sapiens with 6 samples.

Results

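The coding-sequence m5C sites of TMEM219 and BAG6, 1 in each gene, were followed across a ribosome gradient of wildtype HEK293T, a line derived from human embryonic kidney. Cell lysate was separated on a sucrose gradient and the RNA was collected as 6 fractions: ribosome-free RNA (free), RNA bound by the small subunit, RNA bound by the large subunit, and RNA carrying 1 ribosome (monosome), 2 to 5 (light polysome) or more than 5 (heavy polysome). Poly(A)-selected RNA of each fraction was treated with bisulfite and sequenced, so that unmethylated cytosine was read as T and 5-methylcytosine (m5C) as C. Each fraction had 1 library, so no difference between fractions has a replicate check, and the spread between cultures or gradients is not known.

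The sites were selected by gene name, from genes whose coding-sequence m5C level was already known to be lower towards polysomes in these libraries. Of 542 sites in 501 genes, 2 sites in 2 genes met this rule, and they made up 11 of 1222 listings. The TMEM219 site was listed in all 6 libraries and the BAG6 site in 5, the free library being the exception. A site is listed only where the authors called it, with a lowest listed level of 10% and a lowest coverage of 20 reads. The free library therefore gives no BAG6 value, and too few reads cannot be told apart from a level under the filter. Because the levels were used to choose the genes, they are given below as a description without a test.

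TMEM219 encodes a single-pass membrane protein known as a receptor of the insulin-like growth factor binding protein IGFBP3, through which apoptosis can be triggered. BAG6 encodes a large cytosolic chaperone that, with GET4 and UBL4A, shields the hydrophobic stretches of new membrane proteins, and either passes tail-anchored proteins on for insertion or directs faulty ones to ubiquitination. In mRNA, m5C is written mainly by 2 enzymes. NSUN2 methylates Type I sites, which are followed by a G-rich stretch, and NSUN6 methylates Type II sites, which are followed by UCCA.

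The sites differed in motif class. The 21 nt around each, with 10 nt on either side, are shown because the bases after the cytosine set its type. They are written 5′ to 3′ in DNA letters from the GRCh37 genome, and capitals mark the methylated cytosine and the next 4 bases.
TMEM219: agtgctgttcCAGGAatccta
BAG6: cggcccactcCTCCAcaggct
The TMEM219 window lies at chr16:29979423-29979443 on the plus strand and the BAG6 window at chr6:31611901-31611921 on the minus strand. TMEM219 has AGGA after the cytosine, with 2 G among the next 3 bases, and was assigned to Type I, as was every site without TCCA. BAG6 has TCCA (UCCA in RNA) and belongs to Type II. Of the 528 sites placed in an exon, 20 (3.79%) had AGGA at this position and 189 (35.8%) had TCCA. Each 21-nt window occurred once in the primary assembly. With every C turned into T, as bisulfite reads are mapped, the 21 letters of TMEM219 occurred 4 times and those of BAG6 25 times, but a window of 51 nt was found once for each gene.

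The TMEM219 (ENSG00000149932) site, at position 29979433 of chromosome 16, lay in exon 4 of the 6 exons of the canonical GENCODE 44 transcript, a 230-nt exon, at nucleotide 443 of a 720-nt coding sequence. The BAG6 (ENSG00000204463) site, at position 31611911 of chromosome 6, lay in exon 13 of 26, a 113-nt exon, at nucleotide 1616 of a 3486-nt coding sequence. Both were thus near the middle of the open reading frame, at 61.5% of its length in TMEM219 and 46.4% in BAG6. Both cytosines were base 2 of a proline codon, CCA at codon 148 of TMEM219 and CCT at codon 539 of BAG6. Among the 260 coding-sequence sites, 57 (21.9%) were at base 2 of a codon and 23 (8.85%) at base 2 of a proline codon. The site lay in the coding sequence of 6 of 7 annotated protein-coding TMEM219 transcripts and in an intron of the other. For BAG6 it lay in the coding sequence of 10 of 23, and the other 13 annotated models did not reach its position.

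**Figure D1:**
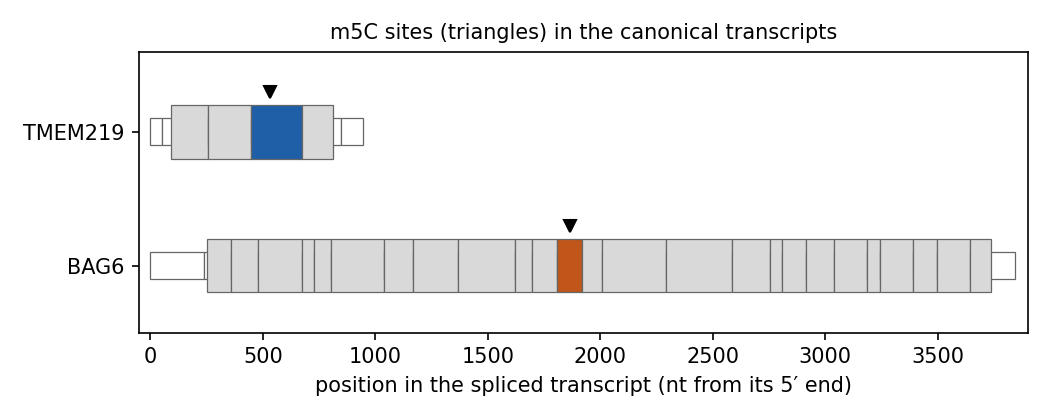
Exons of the canonical TMEM219 and BAG6 transcripts drawn to scale, with position in nt from the transcript's 5′ end on the x axis, coding sequence as tall grey boxes and untranslated parts as low white boxes. Triangles mark the m5C sites at nucleotide 534 of TMEM219 and nucleotide 1867 of BAG6, and the exons that hold them are coloured.

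The predicted structure around both sites changed with the length folded. In the minimum free energy structure of 50 nt on either side, the TMEM219 cytosine was paired and the BAG6 cytosine unpaired outside a hairpin loop. With 25 nt on either side, the TMEM219 cytosine was unpaired and the BAG6 cytosine lay in a hairpin loop of 12 nt closed by a stem of 4 base pairs. Over all placed sites, 61.4% of the 339 Type I and 27.5% of the 189 Type II cytosines were paired in the longer window. Type I here means any site without TCCA, and 219 of the 339 (64.6%) had at least 2 G among the next 3 bases.

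TMEM219 carried a level of 22.9% to 27.3% in the libraries lighter than polysomes and a lower one in both polysome libraries. Free RNA had 1863 C reads of 7150, or 26.1% (Wilson 95% interval 25.1% to 27.1%). It was 27.3% in the small subunit library (25.1% to 29.6%, 415 of 1519 reads) and 24.5% in the large subunit library (20.7% to 28.8%, 105 of 428 reads). In the monosome library it was 22.9% (20.0% to 26.1%, 171 of 746 reads), the lowest of the 4 lighter libraries. The light polysome library had 15.2% (12.6% to 18.2%, 96 of 632 reads). The heavy polysome library had 16.1% (10.7% to 23.6%, 20 of 124 reads), the widest interval of the 6. Both polysome levels lay below all 4 lighter levels, so the groups did not overlap. Intervals cover counting error only, since reads had no molecular identifiers.

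The order of the TMEM219 levels, from high to low, was small subunit, free, large subunit, monosome, heavy polysome and light polysome. No 2 neighbours in that order differed beyond the Newcombe 95% interval of their difference. From monosome to light polysome the level was lower by 7.73 percentage points (3.57 to 11.8). From light to heavy polysome it was higher by 0.94 percentage points (-5.28 to 8.85). Heavy polysome minus monosome was -6.79 percentage points (-13.1 to 1.21), and monosome minus small subunit, both lighter than polysomes, was -4.40 (-8.08 to -0.566).

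BAG6 was methylated at a higher level than TMEM219 in each of the 5 libraries that listed both, by between 10.9 and 22.8 percentage points. With the small subunit, 21 of 46 BAG6 reads had C, or 45.7% (32.2% to 59.8%), and with the large subunit 108 of 228, or 47.4% (41.0% to 53.8%). It was 33.8% in the monosome library (23.9% to 45.4%, 24 of 71 reads) and 36.4% in the light polysome library (29.6% to 43.7%, 64 of 176 reads). The lowest value was 29.1% in the heavy polysome library (24.2% to 34.5%, 86 of 296 reads). Here the groups overlapped, because the monosome level lay below that of light polysomes.

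BAG6 levels, from high to low, ran large subunit, small subunit, light polysome, monosome and heavy polysome, and no 2 neighbours in that order differed beyond their interval. From the large subunit to the monosome library the level was lower by 13.6 percentage points (0.342 to 25.4), a step that rests on 71 monosome reads. For the same step TMEM219 had a difference of -1.61 percentage points (-6.77 to 3.36), and the intervals of the 2 genes overlap. From monosome to light polysome the BAG6 level was higher by 2.56 percentage points (-10.8 to 14.9), an interval that also holds the TMEM219 difference of -7.73, and from light to heavy polysome lower by 7.31 (-1.34 to 16.1). The step at which the level was lower thus cannot be told apart between the genes at this depth. Of the 10 pairs of BAG6 libraries, the largest difference was between large subunit and heavy polysome, at -18.3 percentage points (-26.4 to -9.94). For 6 of the 10 pairs the interval held 0, and for 4 it lay below 0. Intervals were not adjusted for the number of pairs.

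**Figure D2:**
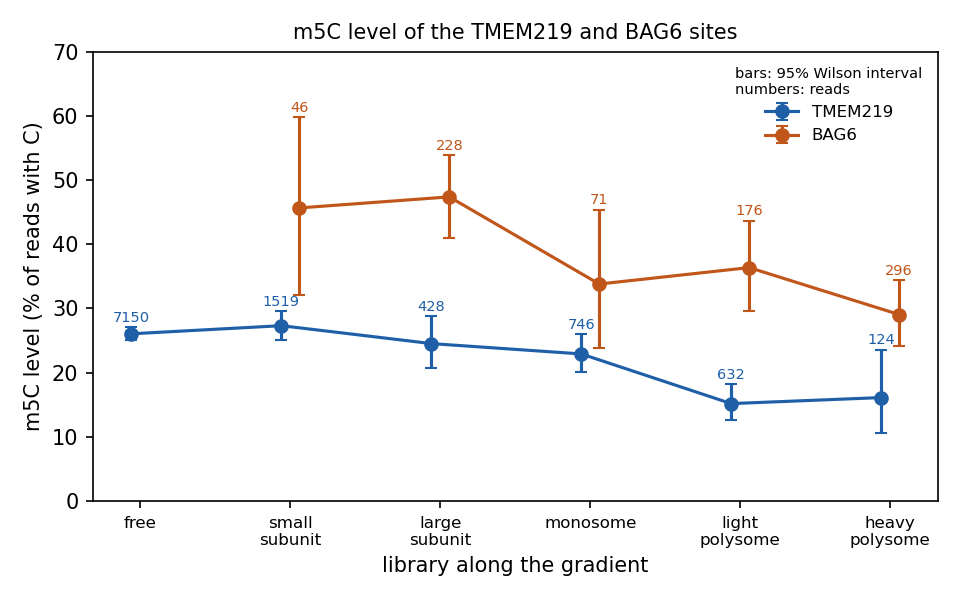
m5C level (y axis, % of reads with C) of the TMEM219 and BAG6 sites in each library along the gradient (x axis), with 95% Wilson intervals as bars and the number of reads beside each point. TMEM219 lies between 22.9% and 27.3% up to monosomes and at 15.2% and 16.1% in polysomes, while BAG6 goes from 45.7% and 47.4% with the subunits to 29.1% in heavy polysomes and has no value in the free library.

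In percentage points, the difference between mean polysome and mean lighter levels was nearly the same in both genes, though the free library entered for TMEM219 only. The mean TMEM219 level was 25.2% over 4 lighter libraries and 15.7% over 2 polysome libraries, a difference of -9.55 percentage points (95% interval from counting error -13.3 to -5.75). For BAG6 the means were 42.3% over 3 lighter libraries and 32.7% over 2 polysome libraries, a difference of -9.57 (-17.3 to -1.79). Relative to the lighter level, polysomes held 62.1% of it in TMEM219 and 77.4% in BAG6. The BAG6 value depended on the heavy polysome library, without which it was -5.91 percentage points, and monosome against heavy polysome alone gave -4.75. Without the free library the TMEM219 difference was -9.27. Reads summed on each side gave -10.6 for TMEM219 and -12.6 for BAG6, so the near equality holds for the means only.

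These differences were set beside the 70 sites listed in at least 5 libraries with both polysome libraries among them. BAG6 and TMEM219 ranked 11 and 12 among the 70 by the size of the drop in points, and TMEM219 ranked 6 and BAG6 19 by the ratio. The median difference over the 70 sites was -2.60 percentage points, and over the 38 coding-sequence sites -4.04. Both polysome levels lay below every lighter level at 19 of the 70 sites (27.1%), and 1 of the 2 members, TMEM219, was among the 19. Among the 38 coding-sequence sites of nuclear genes the share was 14 (36.8%), and among the 36 sites with at least 50 reads in enough libraries 13 (36.1%). The rule used this contrast, so the count is given without a reading. The heavy polysome library held the lowest level at 24 of the 70 sites (34.3%), BAG6 among them, and the light polysome library at 15 (21.4%), TMEM219 among them.

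**Figure D3:**
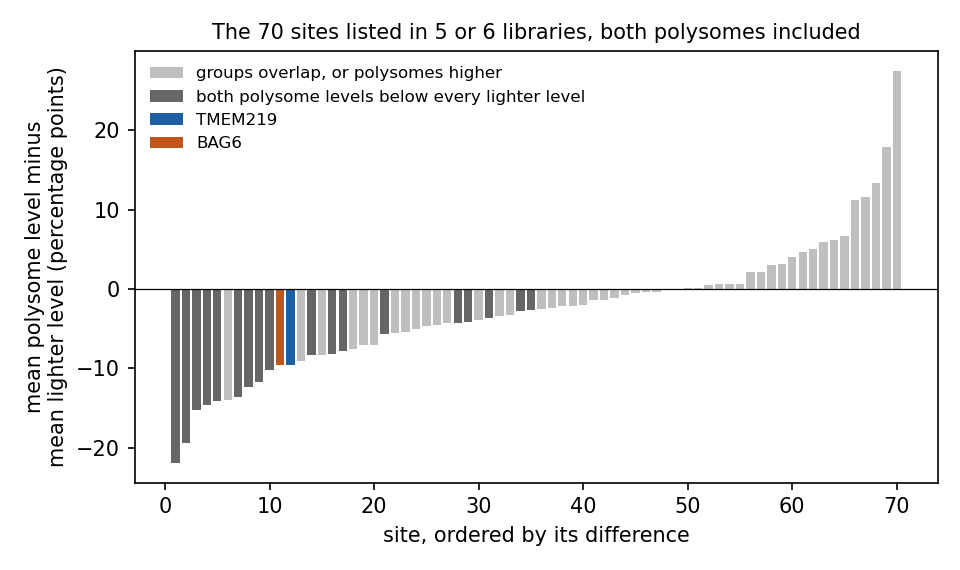
Mean polysome level minus mean lighter level (y axis, percentage points) for each of the 70 sites listed in at least 5 libraries with both polysome libraries, ordered by that difference (x axis). Dark bars are sites whose polysome levels both lie below every lighter level; BAG6 at -9.57 and TMEM219 at -9.55 (coloured; TMEM219 also has non-overlapping levels) stand next to each other at ranks 11 and 12.

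Between the lightest library that listed each site and heavy polysomes, the reads behind the levels were fewer for TMEM219 and more for BAG6. Coverage was not used to choose the genes. TMEM219 had 7150 reads in the free, 1519 in the small subunit, 428 in the large subunit, 746 in the monosome, 632 in the light polysome and 124 in the heavy polysome library. Its rank by coverage among the listed sites passed from 11 of 172 in the free to 68 of 225 in the heavy polysome library. BAG6 had 46, 228, 71, 176 and 296 reads from the small subunit to the heavy polysome library, and its rank passed from 139 of 199 to 32 of 225. Thus BAG6 was most covered where TMEM219 was least covered.

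Total reads at listed sites differed between libraries, from 764521 in the free to 50416 in the heavy polysome library, so coverage was also scaled. Per 1000 reads at 29 other nuclear sites listed in all 6 libraries, TMEM219 had 46.5 reads in the free library (exact Poisson 95% interval 45.4 to 47.6). This value was 13.6 with the small subunit, 7.15 with the large subunit, 16.2 in monosomes, 15.5 in light polysomes and 4.94 in heavy polysomes (4.11 to 5.89). On the same scale BAG6 had 0.411 in the small subunit library (0.301 to 0.548), 3.81 with the large subunit, 1.54 in monosomes, 4.33 in light polysomes and 11.8 in heavy polysomes (10.5 to 13.2). For both genes the scaled values did not pass evenly from one end to the other, with the large subunit library low for TMEM219 and high for BAG6. On this scale both genes had a higher value in light polysomes than with the small subunit, but for TMEM219 this depended on the reference. Over the median coverage of the 29 sites, TMEM219 had 4.69 with the small subunit and 1.65 in light polysomes. Per 1000 reads at all listed sites but the 5 most covered, it had 19.8 and 16.1. BAG6 was higher in light polysomes on these 2 scales also (0.142 and 0.461, then 0.600 and 4.47).

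**Figure D4:**
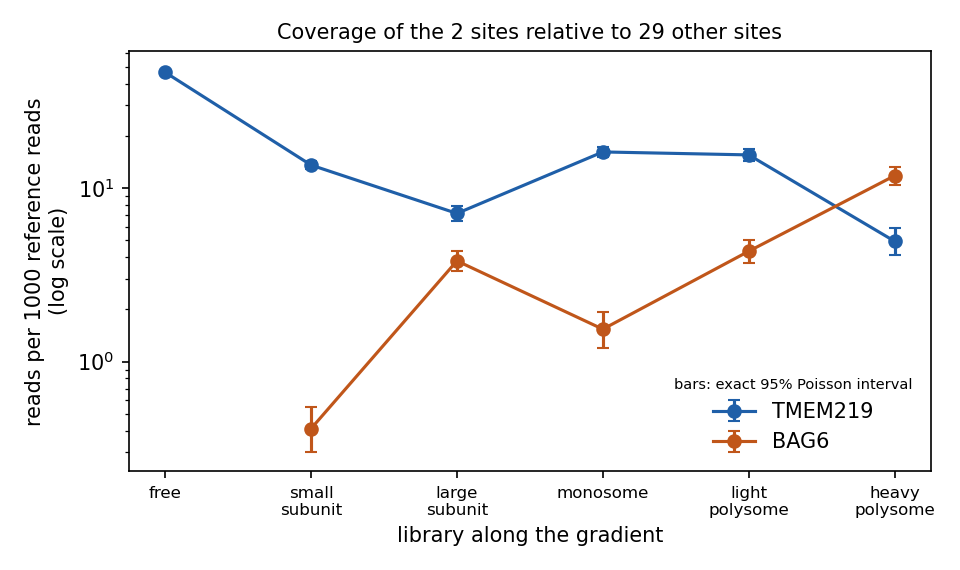
Coverage of the TMEM219 and BAG6 sites per 1000 reads at 29 other sites (y axis, log scale) in each library along the gradient (x axis), with exact 95% Poisson intervals as bars. TMEM219 goes from 46.5 in the free to 4.94 in the heavy polysome library, and BAG6 from 0.411 in the small subunit to 11.8 in the heavy polysome library.

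The scaled coverage of TMEM219 in heavy polysomes was 0.106 of that in the free library (0.0890 to 0.127), lower than at any of the 29 other sites, whose ratios ran from 0.127 to 301 with a median of 7.01. The nearest was RPS2, a small-subunit ribosomal protein gene, at 0.127, next to the upper bound of TMEM219. Against the small subunit library, which also lists BAG6, the TMEM219 ratio was 0.364 (0.303 to 0.437) and 3 of the 29 sites were lower, of which RPS2P5 (0.330) and RPS6KB2 (0.340) lay within its interval. The 29 sites had a median ratio of 4.01 here. The BAG6 ratio was 28.7 (21.02 to 39.1), with 28 of the 29 sites lower and 1, in B9D1, higher at 34.9. All 29 were listed in the free library and BAG6 was not, so sites missing there, as BAG6 is, were left out of this comparison. The ratios of B9D1, DHRS7 (27.97) and NDUFB7 (24.5) all lay within the BAG6 interval, which rests on 46 small subunit reads, so its rank among these sites was not resolved. The scale depends on the reference, since a few ribosomal protein sites with many reads make up much of the sum. With the median of the 29 sites in place of their sum the ratio of TMEM219 to the free library was 0.00735, and the BAG6 ratio to the small subunit library was 6.01. The order among sites does not depend on it.

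A ratio of the 2 genes within 1 library needs no scaling. Reads of TMEM219 over BAG6 were 33.0 in the small subunit library (24.6 to 44.3), 1.88 with the large subunit, 10.5 in monosomes, 3.59 in light polysomes and 0.419 in heavy polysomes (0.340 to 0.517). The value was therefore above 1 in 4 libraries and below 1 in heavy polysomes. Coverage at 1 site reflects the share of a transcript in a library as well as how well the converted site is read and mapped, and these parts cannot be told apart.

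**Figure D5:**
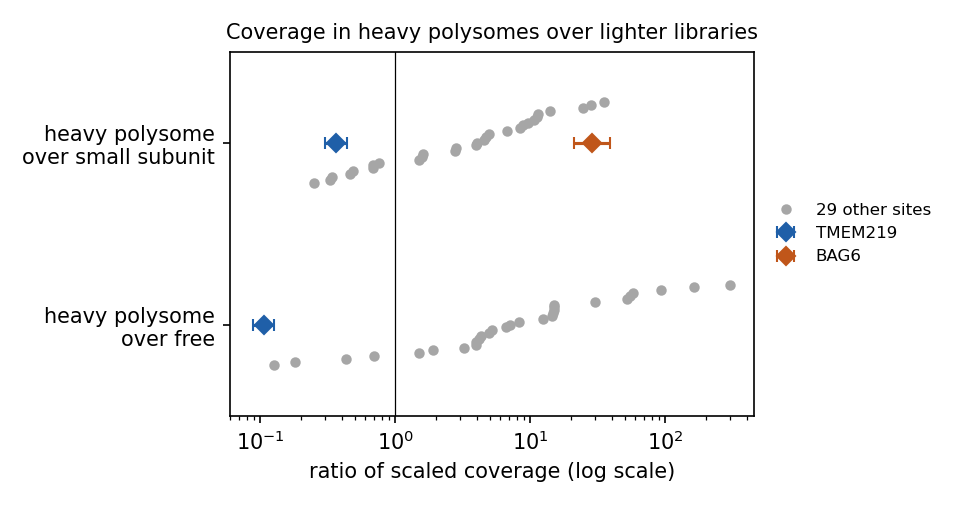
Ratio of scaled coverage in the heavy polysome library over the free or the small subunit library (x axis, log scale) for the 29 other sites listed in all 6 libraries (grey, in order of size), TMEM219 and BAG6 (diamonds with 95% counting intervals). TMEM219 lies left of all 29 sites against the free library at 0.106, and BAG6 lies at 28.7 against the small subunit library, with B9D1, DHRS7 and NDUFB7 inside its interval.

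The sites whose level profiles were most like these were found by the mean absolute difference of level divided by its own mean, over at least 5 shared libraries. For TMEM219, compared with 78 sites, the nearest was in the coding sequence of MVD, a decarboxylase of the mevalonate pathway, with a mean difference of 5.39% of the level. MVD had 30.6% in the small subunit, 28.8% in the large subunit, 24.6% in the monosome, 15.2% in the light polysome and 16.05% in the heavy polysome library. Next came the ribosomal protein pseudogene RPS2P55 (6.15%), whose reads may be shared with near-identical copies, and the 3′ UTR of FGFR4, a receptor tyrosine kinase (7.03%). These 3 sites were Type I, as is TMEM219.

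For BAG6, compared with 59 sites, the nearest was the coding sequence of NDUFB7, a subunit of mitochondrial complex I, at 8.01%. It was followed by the 3′ UTR of HDGF, a growth factor gene (9.57%), and the coding sequence of TRAF7, a ubiquitin ligase (9.98%). TRAF7 was Type II, as is BAG6, and the other two were Type I. BAG6 and TMEM219 differed from each other by 12.2% of the level, rank 14 from TMEM219 and rank 7 from BAG6. All these profiles come from the same 6 libraries, so their likeness includes whatever those libraries share.

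Other genes of both functions were looked up among the 501 genes with a listed site, from lists that hold only some genes of each function. Of 46 genes of the BAG6 complex, chaperones and protein quality control, BAG6 included, 2 had a listed site, BAG6 itself and NPLOC4, a cofactor of the segregase VCP. NPLOC4 had a Type II coding-sequence site at position 79563189 of chromosome 17, where 5 of 44 light polysome reads (11.4%, 4.95% to 24.0%) and 16 of 139 heavy polysome reads (11.5%, 7.21% to 17.9%) had C. Of 55 cell-death genes, TMEM219 included, 3 had a listed site, TMEM219 itself, BCL2L11 and DFFB. How many genes of each list had enough reads to be called is not known, so these counts are not read as low or high. BCL2L11, a pro-apoptotic BH3-only protein gene, had a Type I 3′ UTR site in the monosome library alone, at 21.7% (9.66% to 41.9%, 5 of 23 reads).

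DFFB, the caspase-activated DNase gene, had 2 adjacent 3′ UTR sites, at positions 3800783 and 3800784 of chromosome 1. The former was listed in the heavy polysome library alone, at 25.5% (15.3% to 39.5%, 12 of 47 reads). The latter was at 50.0% in the small subunit library (29.9% to 70.1%, 10 of 20 reads), 30.0% in light polysomes (14.5% to 51.9%, 6 of 20 reads) and 52.2% in heavy polysomes (38.1% to 65.9%, 24 of 46 reads). These intervals overlap, so no order of the DFFB levels was detectable at this depth. TMEM219 and BAG6 were the only genes of the 2 lists with a site in 5 or more libraries. The lists left out the cell-death genes CDIP1, BNIP3 and PIDD and the chaperone gene DNAJC4, which also had listed sites. CDIP1 had a Type I coding-sequence site in 5 libraries, with both polysome levels below every lighter level. Its difference was -10.2 percentage points, rank 10 among the 70 sites, next to BAG6 and TMEM219. Of all 542 sites, 78 besides the TMEM219 site were listed in at least 5 libraries. TMEM219 and BAG6 were chosen for a level profile along the gradient, so this count is given without a reading.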

How the data were processed

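Poly(A)-selected RNA of 6 gradient fractions was profiled, with 1 library each, and samples were grouped by the GEO descriptions. Per the methods and processing notes, the authors used Cutadapt 1.13 and Trimmomatic 0.36 for trimming, HISAT2 for the C-to-T converted GRCh37 genome and Bowtie2 2.2.9 for the converted transcriptome, and filtered reads, sites and genes for incomplete conversion. The deposited coverage holds raw counts of reads with C or T. The deposited m5C level is the fraction of these reads with C. The P-value deposited by the authors, which compares a site with the non-conversion of its gene, was not used for any result here. Stricter filters by the authors lower coverage and remove low levels from the lists.

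The number of C reads is the product of level and coverage, and it was whole to within 1e-06 at all 1222 listings. Sites were placed in GENCODE 44 lifted to GRCh37, the authors' build, and 541 of 542 had C on the listed strand; the other was on a contig not used here. Sites followed by TCCA were assigned to Type II and all others to Type I. Windows were folded with RNAfold 2.7.2. Wilson, Newcombe and exact Poisson intervals are at 95% and cover counting error only. Coverage was scaled to the other nuclear sites listed in all 6 libraries. No differential test was run, because the genes were chosen on the level contrast and there are no replicates. The heavy polysome over free coverage ratio planned for BAG6 was replaced by heavy polysome over small subunit, added after the data were seen. The members and the gene lists were chosen with earlier results of these data known. Sites of other genes were named when they were among the 3 nearest profiles or on the lists. RPS2, RPS2P5, RPS6KB2, B9D1, DHRS7 and, for coverage, NDUFB7 were singled out after their values were seen. So were CDIP1, BNIP3, PIDD and DNAJC4, which are not on the lists. The functions were tested on simulated data. Python 3.11.15, numpy 2.4.6, scipy 1.17.1, pandas 2.3.3, pysam 0.24.0 and matplotlib 3.10.9 were used.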

Additional observations from a re-analysis of the deposited data

How the results depend on the processing

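The difference between polysome and lighter levels stayed negative for both genes under every alternative run. Leaving out each library in turn gave -10.3 to -8.84 percentage points for TMEM219 and -13.8 to -5.91 for BAG6. Summed reads gave -10.6 and -12.6. The share of sites with both polysome levels below all lighter levels ran from 25.8% to 36.8%. The coverage ratios moved with the reference but kept their side of 1. A ratio above 1 does not set BAG6 apart from other sites. With summed reads, the reference sites had median ratios of 7.01 against the free and 4.01 against the small subunit library. TMEM219 lay below both medians, with 0 of the 29 sites lower against the free and 3 lower against the small subunit library. The TMEM219 ratio to the free library was 0.00735 with the median of the reference sites. It was 0.0561 with all listed sites but the 5 most covered. Against the small subunit library the TMEM219 ratios were 0.0762 and 0.197. For BAG6 against the small subunit library they were 6.01 and 15.6. With level minus its mean as the measure of likeness, 2 of the 3 nearest sites of TMEM219 were kept and 1 of the 3 of BAG6. Folding 25 nt on either side raised the share of unpaired cytosines from 50.8% to 59.8%; the cause of these shifts was not tested. Depth limits the BAG6 values of the small subunit and monosome libraries and the TMEM219 value of heavy polysomes most. No BAG6 value could be computed against the free library. No paired analysis was possible because each group has 1 library.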
